A study of Mus musculus with 4 samples.

Results

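Enzymes that write or erase marks on histones, proteins that read such marks and the motors that move nucleosomes were followed as m6A carriers in mouse retinal organoids after 4 days of differentiation. The genes were taken by name: symbols starting with Kdm, Kmt, Setd, Hdac, Smarc or Arid, or with Chd or Brd and a digit, leaving out Kdm2b. This gave 83 of the 29134 named genes in the site lists, of which 79 are protein-coding in the RefSeq gene table. The Kdm name held 16 genes, Smarc 12, Hdac and Setd 10 each, Arid, Brd and Chd 9 each, and Kmt 8. Kdm6bos and Setd9-ps had no listed site. A further 9 protein-coding symbols of the RefSeq table that match these names were not analysed here.

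Lysine methyltransferases of the Kmt and Setd families add methyl groups to histone tails, and Kdm demethylases and Hdac deacetylases remove methyl and acetyl groups. Bromodomain proteins bind acetylated lysine, while Chd and Smarc proteins and some Arid proteins belong to complexes that use ATP to reposition nucleosomes. Such complexes are known to act as cells leave the pluripotent state and take on a neural fate. m6A is the methylated adenosine that METTL3, the catalytic subunit of the main mRNA methyltransferase, deposits on RNA. It is known for a preference for long internal exons and the region around the stop codon.

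The 4 libraries comprised 2 of the WT Rx:GFP line and 2 of the Mettl3 KO line made in Rx:GFP cells, hereafter KO. Both lines were differentiated in GMEM medium with KSR serum replacement and AGN. The growth protocol also describes a doxycycline-inducible HA-METTL3 in the KO, and the labels record no treatment of either line. The labels give neither the number of KO clones nor whether replicates were separate cultures, so p-values measure the spread between these libraries, which may be technical. Each library was made by GLORI, in which unmodified adenosine in poly(A) RNA is deaminated and read as G while m6A is still read as A. The level of a site is the fraction of its reads that stayed A, and its coverage is the number of reads showing A or G.

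The lists held 215850 to 288516 sites per library, with a median coverage of 38 to 41 reads per site. No list holds a site with fewer than 15 reads, with fewer than 5 reads showing A or with a level under 0.1. Absence from a list can therefore mean full conversion, partial conversion that left too few A reads or too low a level, or too few reads. Which of these applies cannot be told from the lists. The summed gene coverage of 8 eye field and neural marker genes, as multiples of the median gene, was 42.9 and 44.0 in the WT and 18.2 and 17.3 in the KO, with a gene without a value counted as 0. Six3 and Sox2 made up most of it: Six3 had 16.3 and 17.6 in the WT and 1.81 and 2.45 in the KO, and Sox2 had 12.1 and 12.6 against 8.00 and 6.35. Of the 6 tested, 3 were lower and 1, Hes5, was higher, with 2.33 and 1.42 in the WT and 3.04 and 3.73 in the KO (limma adjusted p = 0.0465). Pax6 had 2.22 and 2.23 in the WT and 2.61 and 2.23 in the KO. For 5 pluripotency markers the summed coverage was 7.61 and 7.27 in the WT and 2.33 and 2.58 in the KO, and 1 of 2 tested was lower. Mesoderm and endoderm markers summed to at most 0.875 in any library. Mid- and hindbrain markers summed to 1.24 and 0.975 in the WT and 2.25 and 2.92 in the KO, and 1 of 2 tested was higher. Surface ectoderm markers had 0.991 and 0.944 in the WT and 0.671 and 0.497 in the KO, and the 1 tested was lower. Neural crest markers had 0.772 and 0.988 in the WT and 1.19 and 1.22 in the KO, and the 1 tested did not pass. The part of these differences in the results below was not tested. In bulk samples, fewer cells of a type and less RNA per cell cannot be told apart.

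The number of listed sites in chromatin genes differed little between genotypes, while the number of sites with a high level was lower in both KO libraries. The WT libraries listed 2643 and 3408 sites in these genes and the KO libraries 2887 and 2578. The means were 3025.5 ± 541 in the WT and 2732.5 ± 218 in the KO (SD, n = 2 each; two-sided exact permutation p = 0.667), and the groups overlapped. Among sites with a coverage of at least 50, those at a level of at least 0.3 numbered 176 and 229 in the WT and 103 and 116 in the KO. The KO mean was 0.541 times the WT mean, against 0.448 times over all sites. The exact permutation test gave p = 0.33, the smallest that 2 libraries per genotype allow.

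The difference was larger at higher levels. At levels of 0.1 to 0.2 the WT libraries had 660 and 900 well covered sites and the KO libraries 924 and 732, so the genotypes overlapped. Between 0.3 and 0.5 there were 118 and 134 sites in the WT and 82 and 91 in the KO. Between 0.5 and 0.7 there were 37 and 46 in the WT and 15 and 14 in the KO. At levels of 0.7 and above there were 21 and 49 in the WT and 6 and 11 in the KO. The KO mean over the WT mean was thus 1.06 in the lowest class, 0.687 from 0.3 to 0.5, 0.349 from 0.5 to 0.7 and 0.243 in the highest. Over all sites these ratios were 0.924, 0.566, 0.338 and 0.211, so the gradient was not particular to chromatin genes. The share of well covered sites at a level of 0.3 or more was 17.0% and 16.6% in the WT and 8.38% and 11.2% in the KO.

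**Figure D1:**
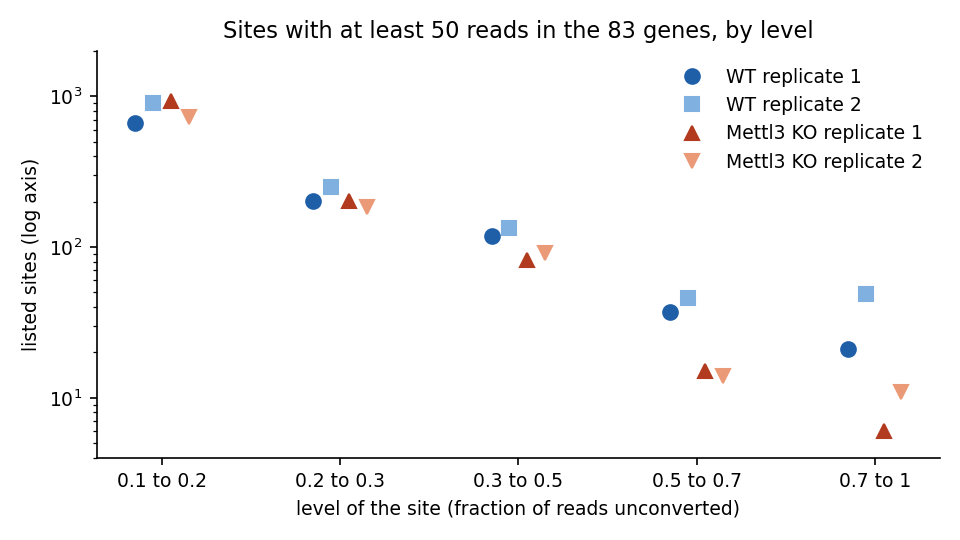
Number of listed sites in the 83 chromatin genes with at least 50 reads, on a log axis, by level class and library, each point 1 library. The genotypes overlap from 0.1 to 0.2, while from 0.3 upward both Mettl3 KO points lie below both WT points, with 6 and 11 KO sites against 21 and 49 WT sites in the class from 0.7 to 1.

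Sites that the WT libraries had in common were mostly missing from the KO lists. Chromatin genes had 281 sites listed in both WT libraries with at least 20 reads in each, spread over 62 genes. Of these, 228 were in neither KO list (81.1%, Wilson 95% interval 76.2% to 85.3%), 35 were in 1 and 18 were in both. Over all named genes the share in neither KO list was 83.1% of 22892 sites, so chromatin genes were close to the rest. The reverse was also common: of 152 sites common to the KO libraries, neither WT list held 70.4%, against 72.1% of 9153 over all genes. Such intervals count sites as independent, though the sites cluster in genes and come from the same libraries. They do not cover the spread between libraries, and reads may also be PCR copies.

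The share in neither KO list did not move in 1 direction with the WT level. Among shared sites with 50 or more reads in both WT libraries it was 69.9% of 93 at mean WT levels of 0.1 to 0.2, 79.1% of 43 from 0.2 to 0.3 and 93.3% of 30 from 0.3 to 0.5. It was 81.8% of 11 from 0.5 to 0.7 and 75% of 12 from 0.7 upward. Over all genes it rose from 76.0% in the lowest class to 90.3% from 0.5 to 0.7 and was 76.2% in the highest. Where both WT levels were 0.3 or more, chromatin genes had 74 shared sites in 37 genes. Of these 74 sites, 65 were in neither KO list (87.8%, against 85.6% of 7124 over all genes). Of the 37 of these sites with 50 or more reads expected in each KO library, 81.1% were in neither, against 85.1% of 3571 over all genes. The KO libraries shared only 7 sites of that level in these genes, of which 4 were in neither WT list. Sites with a level of 0.3 or more and 50 or more reads in 1 WT library were found in the other WT list, at any level, in 38.1% of 176 and 29.7% of 229 cases. The same sites were found in a KO list in 5.68% to 7.39% of cases. KO sites of this kind were found in the other KO list in 5.83% of 103 and 6.03% of 116 cases. The KO libraries thus had far fewer high sites in common than the WT libraries. The pattern was not particular to chromatin genes. Over all genes, WT sites of this kind were found in the other WT list in 46.4% and 37.9% of cases and in a KO list in 6.48% to 7.62%. KO sites over all genes were found in the other KO list in 7.75% and 9.03% of cases.

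**Figure D2:**
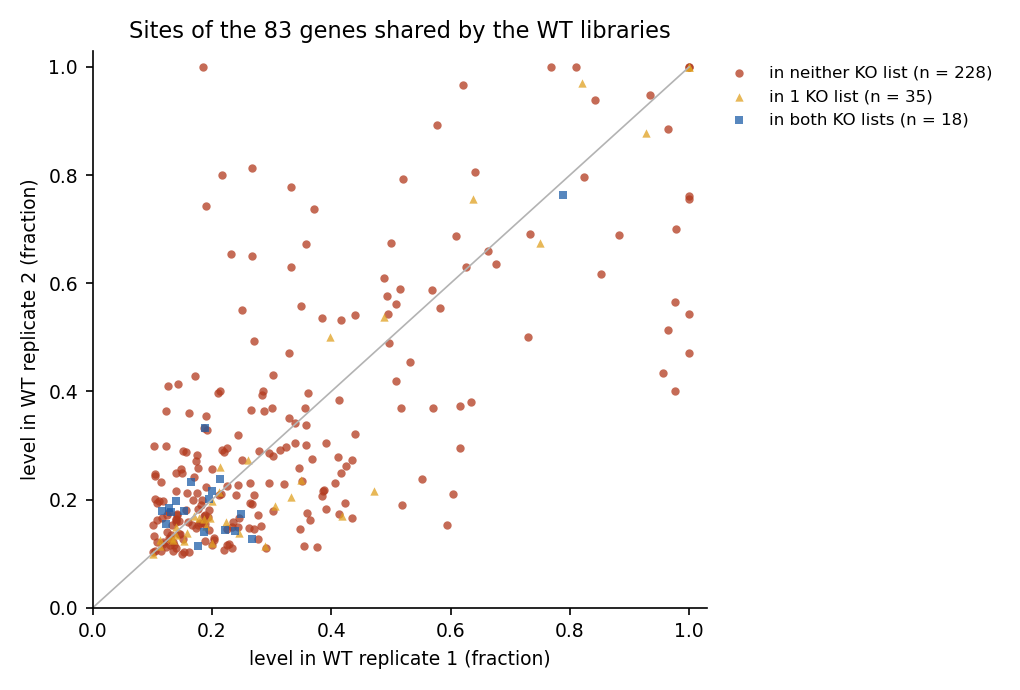
Level in WT replicate 1 against level in WT replicate 2, as fractions of unconverted reads, for the 281 sites of chromatin genes listed in both WT libraries with at least 20 reads in each; the line marks equal levels. Points in neither KO list (228) fill the plot, while 17 of the 18 sites in both KO lists lie below a level of 0.35 in each WT library and the exception is a Brd2 site.

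The 10 shared sites with the highest mean WT level, at 50 or more reads in each WT library, lay in 10 different genes. Coordinates are those of the lists, whose genome build is discussed with the processing, and the bases around the sites were not analysed here. A Chd1 site at chr17:15991022 (plus strand) lay 1850 bases before the end of the gene, which encodes a remodeller bound to active chromatin. Its level was 0.842 and 0.939 in the WT, over 405 and 587 reads, and it was in neither KO list. Scaling the WT coverage by the change in coverage of the gene gave an expected 545 and 463 reads in the KO libraries. Chd4, the ATPase of the NuRD complex, had a site at chr6:125107253 (plus strand), 301 bases before its end, with levels of 0.824 and 0.797 over 590 and 718 reads. That site was in neither KO list at an expected 526 and 381 reads. Kdm3a, an H3K9 demethylase, had a site at chr6:71566551 (minus strand), 595 bases before its end, with levels of 0.883 and 0.689. It was in neither KO list at an expected 418 and 262 reads.

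Methyltransferase genes and Arid4b held further sites of this kind. Kmt2d, an H3K4 methyltransferase of enhancers, had levels of 0.964 and 0.886 over 112 and 123 reads at chr15:98738137 (minus strand). Kmt5b, an H4K20 methyltransferase, had levels of 0.811 and 1.0 over 148 and 121 reads at chr19:3866141 (plus strand). Setd5 had levels of 0.853 and 0.617 over 68 and 188 reads at chr6:113120784 (plus strand). Arid4b had a level of 1.0 in both WT libraries over 54 and 52 reads at chr13:14372502 (plus strand). None of these 4 sites was in a KO list, with an expected coverage of 119.7 and 122 reads for Kmt2d, 137 and 101 for Kmt5b, 113 and 96.4 for Setd5, and 44.6 and 43.1 for Arid4b.

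The other 3 of the 10 sites were listed in the KO at a lower level. Kdm5b, an H3K4 demethylase, had a level of 1.0 in both WT libraries over 148 and 87 reads at chr1:134559253 (plus strand). It was absent from KO replicate 1 and had a level of 0.214 over 42 reads in KO replicate 2. Chd2 had levels of 0.929 and 0.879 over 70 and 99 reads at chr7:73076567 (minus strand), and a level of 0.190 over 42 reads in KO replicate 1. The Brd2 site is described with the tests below. In each case the KO level lay far below both WT levels. The 10 sites were picked by their WT level, and such a choice by itself favours lower KO levels. Sites shared by the KO libraries, ranked by KO level at 20 or more reads, looked similar. The highest, in Arid1b, had 0.481 and 1.0 in the KO and was in neither WT list. The next, in Setd7, had 0.538 and 0.825 in the KO and 0.237 in WT replicate 2 only.

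**Figure D3:**
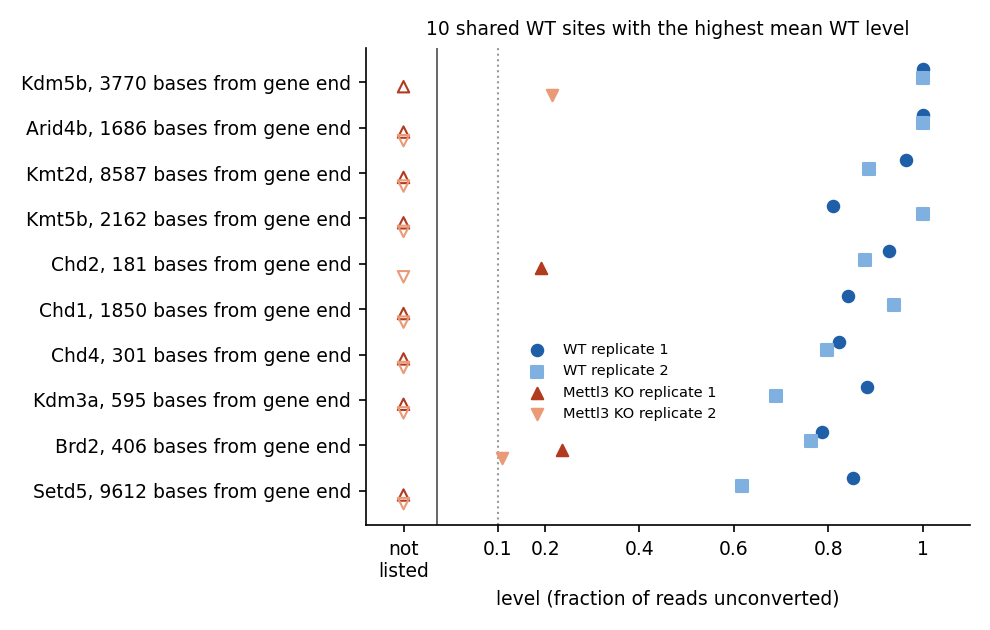
Level, as a fraction of unconverted reads, of the 10 shared WT sites with the highest mean WT level at a coverage of at least 50 in each WT library; filled symbols are listed levels, open symbols at the left mark libraries without the site, and the dotted line is the lowest listed level of 0.1. All WT levels are at least 0.617, and the 4 KO levels that exist are 0.109, 0.190, 0.214 and 0.235.

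The best covered shared site with a high level in these genes was in Hdac2, the class I deacetylase of Sin3, NuRD and CoREST complexes, and was chosen for description after its values were seen. It lay at chr10:36877661 (plus strand), 224 bases before the gene's end, with levels of 0.627 over 1251 reads and 0.630 over 1437 reads in the WT. It was in neither KO list, where 1185 and 819 reads were expected. A second Hdac2 site, 144 bases downstream at chr10:36877805, had levels of 0.127 and 0.184 in the WT and 0.165 and 0.208 in the KO, over 259, 245, 249 and 240 reads. This second site was read at similar depth in both genotypes, at far fewer reads than the first had in the WT. Within 100 bases of the first site, KO replicate 1 listed at most 105 reads, 93 bases away, and KO replicate 2 listed no site. The depth at the first site in the KO is therefore an estimate that the lists do not show. Hdac6, a cytoplasmic deacetylase, had a site at chrX:7796556 (minus strand), 197 bases before its end, with levels of 0.509 and 0.561 over 409 and 424 reads. That site was in neither KO list at an expected 250 and 189 reads.

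Coverage next to missing sites was also read directly. Of the 228 shared WT sites in neither KO list, 169 (74.1%) had a site with at least 50 reads within 100 bases on the same strand in at least 1 KO list. Of the 98 with a mean WT level of at least 0.3, 61 (62.2%) had one. Within 100 bases of the Chd1 site above, the best covered listed sites had 184 and 350 reads in the KO libraries, at levels of 0.109 and 0.114. Beside the Kmt2d site they had 74 and 109 reads, at levels of 0.243 and 0.119. Beside the Kmt5b site they had 134 and 46 reads, and beside the Arid4b site 43 and 58. Around the sites in Chd4, Kdm3a and Setd5, KO replicate 1 listed no site within that distance, and the best covered in KO replicate 2 had 515, 175 and 86 reads. Keeping shared sites where each KO library should have had 50 or more reads left 176, of which 75% were in neither KO list, against 81.0% over all genes.

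The genes with the most shared WT sites included remodellers, demethylases, methyltransferases and a reader. Smarcad1, a remodeller with a role in heterochromatin, had 12 shared sites, of which 11 were in neither KO list. Smarcc1, a core BAF subunit, had 11, of which 9 were in neither, and Chd1 had 10, of which 9 were in neither. Among demethylases, Kdm2a and Kdm5b had 10 each, with 7 and 9 in neither KO list, Kdm5c had 9 with 7, and Kdm4a had 8 with all 8. Among methyltransferases, Setd1a had 9 with 7 in neither, and Kmt2b and Kmt5c had 8 each with 5 and 7. The reader Brd2 had 8 with 5 in neither. Kmt2d and Brd8 followed with 7 each, all in neither KO list.

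These sites covered a wide range of levels within a gene. In Smarcad1 the mean WT level ran from 0.125 to 0.696 over the 12 sites, and in Chd1 from 0.133 to 0.890 over 10. The highest Smarcad1 site, at chr6:65091482, had 0.637 and 0.756 in the WT and 0.126 in KO replicate 2 only. In Kmt5c the 276 and 200 reads at chr7:4749704 gave levels of 0.496 and 0.490, and the site was in neither KO list at an expected 245 and 171 reads. Kdm5c, an X-linked H3K4 demethylase, had levels of 0.734 and 0.691 at chrX:151056209 over 169 and 249 reads, and the site was in neither KO list. An exception was in Kdm2a, where a site at chr19:4368966 had a level of 1.0 in both WT libraries, over 30 and 113 reads, and still 0.900 in KO replicate 1.

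**Figure D4:**
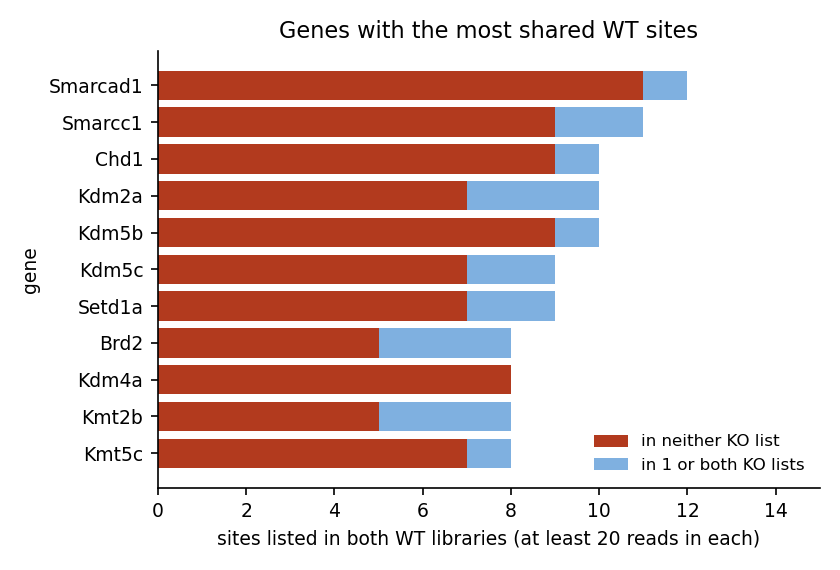
Number of sites listed in both WT libraries with at least 20 reads in each, for the 11 genes with 8 or more, split into sites in neither KO list and sites in 1 or both KO lists. Smarcad1 leads with 11 of 12 sites in neither list, and Kdm4a has all 8 in neither.

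By role, the share of shared WT sites in neither KO list ranged from 66.7% to 90.9% between families. For writers it was 85.3% of 34 sites for Kmt and 71.9% of 32 for Setd. For erasers it was 84.1% of 63 for Kdm and 66.7% of 12 for Hdac. Bromodomain genes had 77.8% of 36, and among remodellers Chd had 90.9% of 33 and Smarc 82.4% of 51. Arid genes, which were grouped by name and not by role, had 75% of 20. The Wilson intervals of Chd, 76.4% to 96.9%, and Hdac, 39.1% to 86.2%, overlap. They count sites of the same libraries as independent, so the families could not be ordered. Well covered sites at a level of at least 0.3 numbered 41 and 69 in Kdm genes in the WT and 20 and 25 in the KO. In Brd genes they numbered 24 in each WT library and 5 and 11 in the KO, and in Chd genes 25 and 34 in the WT and 13 and 19 in the KO. Kmt genes had 30 and 31 in the WT and 18 and 21 in the KO, and Smarc genes had 21 and 26 against 14 and 13. The genotypes overlapped in Hdac genes, with 9 and 4 in the WT and 8 and 3 in the KO, and in Arid genes, with 11 and 23 against 14 and 9. In Setd genes they met, with 15 and 18 in the WT and 11 and 15 in the KO.

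Tests per gene found no chromatin gene past an adjusted p of 0.05 in any of the 3 measures of sites, with edgeR's quasi-likelihood test for numbers of sites and limma for levels, both with Benjamini-Hochberg adjustment over all genes tested. With 2 libraries per genotype these tests could call only large changes, so 0 calls do not show that a gene was unchanged. For the number of listed sites, 77 chromatin genes were tested, and 2.48% of all 10747 genes tested passed. At an unadjusted p under 0.05, 6 chromatin genes were lower and 8 higher (18.2%, against 14.1% of all genes). For the number of well covered sites at a level of at least 0.3, 49 were tested and 0.539% of 3524 genes passed. At an unadjusted p under 0.05, 4 chromatin genes were lower and 0 higher (8.16%, against 21.1% of all genes). For the listed level per gene, which pools the reads of its listed sites, 69 were tested, 0.232% of 8625 genes passed, and 6 were lower and 3 higher at an unadjusted p under 0.05 (13.0%, against 18.7% of all genes).

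The lowest p-values for the number of sites were those of Kdm7a and Arid4b. Kdm7a, a demethylase of H3K9 and H3K27, had 41 and 50 listed sites in the WT and 23 and 14 in the KO (log2 difference −1.09 ± 0.34 SE; edgeR adjusted p = 0.0544). Arid4b had 53 and 61 in the WT and 34 and 18 in the KO (−0.93 ± 0.30; edgeR adjusted p = 0.0652). Hdac1 had 12 and 16 in the WT and 6 and 1 in the KO (edgeR adjusted p = 0.156). Hdac1-ps, a processed copy of Hdac1, had 13 and 9 in the WT and 9 and 17 in the KO, and reads of such near-identical copies may have been assigned to either. In the other direction, Kmt2d had 72 and 65 sites in the WT and 89 and 90 in the KO (edgeR adjusted p = 0.151). Relative to library totals, both KO libraries lay below both WT libraries in 19 of 77 chromatin genes (24.7%, against 21.4% of all genes) and above in 16 (20.8%, against 21.9%).

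High-level sites were fewer in both KO libraries in several chromatin genes without passing the test. Kmt2a, the H3K4 methyltransferase also known as Mll1, had 4 and 7 well covered sites at a level of at least 0.3 in the WT and 0 and 1 in the KO. Kdm4a, an H3K9 and H3K36 demethylase, had 5 and 6 in the WT and 1 and 0 in the KO (edgeR adjusted p = 0.171 for each of these genes). Smarcad1 had 3 and 7 in the WT and 1 and 0 in the KO, and Arid2, the defining PBAF subunit, had 2 and 7 in the WT and 0 and 1 in the KO. The KO libraries lay below both WT libraries in 19 of 49 chromatin genes (38.8%, against 43.8% of all genes). The median log2 difference was −0.43 over the 49 genes and −0.96 over all genes tested. The difference was below 0 in 36 of the 49 genes (73.5%, against 79.1% of all genes) and ran from −2.91 to 2.31. Kdm5c was among the genes in which the genotypes overlapped, with 5 and 14 such sites in the WT and 6 and 7 in the KO.

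The listed level was lower in both KO libraries in 32 of 69 chromatin genes (46.4%, against 38.3% of all genes) and higher in both in 7 (10.1%, against 11.2%). Each value pools the sites of its own list, so the WT and KO values of a gene come from different sets of sites. With sites weighted equally, 0 of 69 chromatin genes and 0 of 8625 genes passed. Hdac2 had the lowest p, with levels of 0.307 and 0.309 in the WT and 0.167 and 0.180 in the KO (log2 odds −1.09 ± 0.25 SE; limma adjusted p = 0.107). The best covered Hdac2 site described above entered its WT values only. Arid1b, a BAF subunit, had 0.508 and 0.468 in the WT and 0.316 and 0.331 in the KO (limma adjusted p = 0.130). Kmt2d had 0.303 and 0.335 in the WT and 0.20 and 0.218 in the KO (limma adjusted p = 0.177). Smarcal1 had 0.323 and 0.401 against 0.233 and 0.241, and Kdm4b had 0.328 and 0.339 against 0.225 and 0.245. Kdm7a ran the other way, with 0.249 and 0.256 in the WT and 0.344 and 0.342 in the KO (limma adjusted p = 0.257). The median log2 odds difference was −0.26 over the 69 genes and −0.20 over all genes.

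At single sites listed in all 4 libraries with at least 20 reads in each, 1 of 18 sites in chromatin genes fell, and 2.63% of all 1557 such sites passed the test. The site lay at chr17:34331403 (minus strand), 406 bases before the end of Brd2, which encodes a BET protein that binds acetylated histones at active genes. Its level was 0.788 and 0.763 in the WT, over 132 and 211 reads, and 0.235 and 0.109 in the KO, over 119 and 101 reads. Both KO levels lay far below both WT levels (log2 odds −4.01; edgeR adjusted p = 0.00247). The 41 sites that passed over all genes all fell. Being listed in all 4 libraries requires a level of at least 0.1 in each, so sites lost from the KO lists could not enter this test.

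The other 17 sites did not pass. At chrX:151056496 in Kdm5c, 1681 to 2311 reads gave levels of 0.176 and 0.114 in the WT and 0.146 and 0.168 in the KO. At chr9:110431038 in Setd2, the enzyme that trimethylates H3K36, 5672 to 7149 reads gave 0.20 and 0.215 in the WT and 0.198 and 0.216 in the KO. This Setd2 site, and 1 site each in Arid2 and Hdac2, carried the coverage value of the whole chromosome and not that of a gene. Further sites lay in Kmt2b, Smarca5 and Setd5 (2 each), and in Arid2, Hdac2 (2), Setd1a, Kdm3b, Kdm2a and Setd2. The Arid2 site had 0.154 and 0.179 in the WT and 0.204 and 0.364 in the KO, over 28 to 52 reads.

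Gene coverage, the coverage signal the lists give for a gene, is expressed as a multiple of the median gene of the library. Hdac6 fell in the KO and was the only 1 of 70 chromatin genes to pass the test, against 5.71% of all 8286 genes. Its coverage was 2.76 and 2.92 in the WT and 1.71 and 1.49 in the KO, with no overlap (log2 −0.83 ± 0.17 SE; limma adjusted p = 0.0177). Hdac6 deacetylates tubulin and other cytoplasmic proteins. The call was lost when WT replicate 2, KO replicate 1 or KO replicate 2 was left out, with log2 differences of −0.93 to −0.73 over the 4 omissions. At an unadjusted p under 0.05, 8 chromatin genes were lower and 2 higher (14.3%, against 23.2% of all genes).

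The other large differences did not pass. Hdac1, the close relative of Hdac2, had 1.63 and 1.85 in the WT and 1.32 and 0.860 in the KO (log2 −0.70 ± 0.21; limma adjusted p = 0.0759). Smarca4, the BAF ATPase BRG1, had 1.24 and 1.56 in the WT and 0.886 and 0.916 in the KO (−0.62 ± 0.18; limma adjusted p = 0.0611). Setd7, a lysine monomethyltransferase, had 1.35 and 1.55 in the WT and 0.968 and 1.05 in the KO. Smarcc1 had 2.86 and 3.21 in the WT and 2.31 and 2.15 in the KO. In each of these 4 genes both KO libraries lay below both WT libraries.

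The largest positive differences were in Chd3, Kdm5d, Setd4, Arid1b and Hdac4. Chd3, a NuRD ATPase, had 0.504 and 0.514 in the WT and 0.637 and 0.784 in the KO (log2 0.47 ± 0.17; limma adjusted p = 0.132). Setd4 had 0.465 and 0.442 in the WT and 0.567 and 0.601 in the KO, and Arid1b had 0.651 and 0.833 in the WT and 0.832 and 1.02 in the KO. Hdac4 had 0.763 and 0.528 in the WT and 0.658 and 0.954 in the KO, which overlapped. Kdm5d, a Y-linked H3K4 demethylase, had 0.813 and 0.676 in the WT and 0.536 and 1.86 in the KO, and its difference of 0.43 turned to −0.47 without KO replicate 2.

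Over the 70 genes, both KO libraries lay below both WT libraries in 26 (37.1%, against 29.4% of all genes) and above in 9 (12.9%, against 24.7%). The median log2 difference was −0.06 over chromatin genes and −0.02 over all genes. The median coverage of listed sites per gene, a second measure of depth, was tested in 69 chromatin genes and passed in 0 (limma; Hdac4, higher, and Hdac3, lower, had an unadjusted p under 0.05, which is 2.90% against 7.79% of all genes), and it passed in 0.0% of all 8625 genes.

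**Figure D5:**
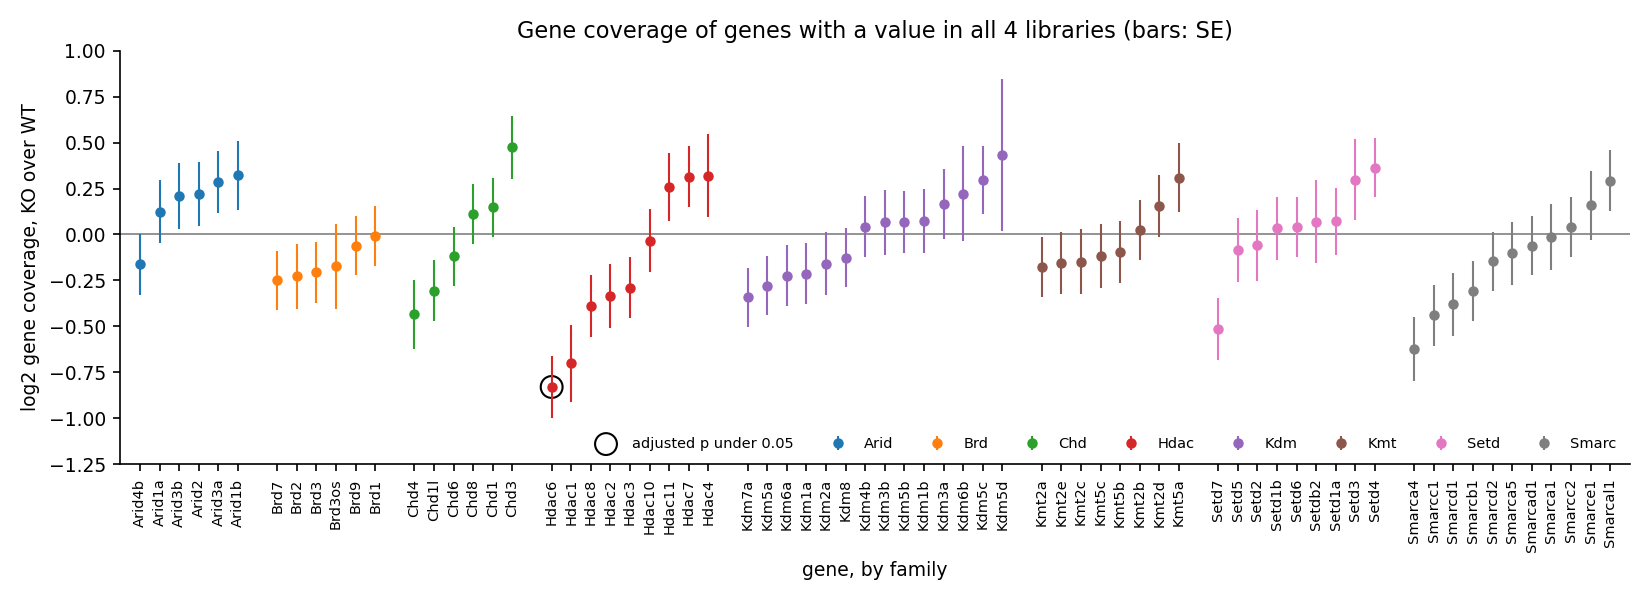
Log2 difference in gene coverage, KO over WT, for chromatin genes with a value in all 4 libraries, 69 of the 70 shown, grouped by family, with bars of 1 SE from limma and a ring around the gene with an adjusted p under 0.05. Hdac6, at −0.83, is the only ringed point, and Hdac1 and Smarca4 follow at −0.70 and −0.62.

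Shared high-level sites lay near gene ends. Of the 74 shared sites with a level of at least 0.3, 46 (62.2%) were within 3000 bases of the end of the gene and 23 (31.1%) within 1000 bases, against 66.2% and 35.7% over all genes. None was within 1000 bases of the start, against 6.35% over all genes. The median site lay 96.3% of the way along its gene, against 91.8% over all genes. In bases, the median distance to the gene end was 1973, against 1695 over all genes. The median span of chromatin genes was 44019 bases, and spans were not compared with those of all genes. The lists mark 36.5% of these sites as intronic, against 45.1% over all genes.

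Genes of the same pathways outside the name rule gave similar counts. Of 69 listed acetyltransferases, further methyltransferases, and subunits of COMPASS, BAF, NuRD, CoREST, NCoR, ISWI and INO80 complexes, 65 were in the lists and the rest were not analysed here. In each of the 5 tests per gene, 0 of the 34 to 62 genes tested were lower and 0 were higher at an adjusted p under 0.05. They had 191 shared WT sites, of which 155 (81.2%, Wilson 95% interval 75% to 86.1%) were in neither KO list. The median log2 difference in gene coverage was −0.12.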

How the data were processed

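The authors deposited 1 list of called GLORI sites per library, with the count of reads showing A or G and the count showing A, per the file headers. The deposited fraction of unconverted reads is the level. The deposited conversion fraction and coverage signal of each gene, and the authors' p-value per site, are also listed. Aligner and caller are not given in the sources used here. The submitters' processing notes name mm10, yet 3 of 81 gene starts lay within 1000 bases of their GRCm38 start, so coordinates stand as listed and their build is unsettled. Repeated entries were collapsed, and sites were placed in same-strand gene spans. Gene values excluded chromosome-wide values (spanning over 10000000 bases) and genes with several values. Numbers of sites and unconverted counts were tested with edgeR 4.0.16 (quasi-likelihood), and log2 odds (0.5 reads added) and centred log2 coverage with limma 3.58.1; DESeq2 1.42.0 was an alternative. Genes needed 10 sites over the libraries, 5 high-level sites, or 3 sites per library for levels. The fits were checked on simulated data: at the effect sizes simulated first, the tests of high-level sites, listed level and site coverage recovered few or none of the changes, and larger ones had to be simulated before most were recovered. Members, lists and rules were chosen with earlier results of these data known. Named were genes past a threshold, the 10 genes with most shared sites (ties kept), the 5 largest coverage differences each way, the 10 highest shared sites, sites tested in all 4 lists and genes with no site; others named were chosen after their values were seen. The values of 1 gene are not reported here.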

Additional observations from a re-analysis of the deposited data

How the results depend on the processing

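The Brd2 site passed under every alternative tried (other coverage minima, limma, a replicate block, each library left out), and site coverage called 0 chromatin genes in all. Other calls moved. For the number of sites, TMM scaling called 1 of 77 chromatin genes (Kdm7a), against 271 of 10747 over all genes. That measure also moved without KO replicate 1, with log2 differences of −1.40 for Arid4b, −1.44 for Kdm7a and 0.98 for Brd3. A level of at least 0.5 called 2 of 16 for high-level sites (Kmt2a and Smarcad1), against 195 of 755 over all genes. The listed level called 4 of 53 at a coverage of at least 50 (Arid4b, Hdac2, Kdm3a and Kdm4b), against 559 of 5056 over all genes. With at least 10 sites per library it called 1 of 62 (Hdac2), against 309 of 5357 over all genes. Gene coverage called 2 of 70 without centring, where the median gene moved by −0.11, against 401 of 8286 over all genes. With the replicate block it called 2 of 70 (Hdac6 and Hdac1), against 587 of 8286 over all genes. Without the genes of lowest coverage it called 3 of 59 (adding Smarca4), against 791 of 6214 over all genes. Replicate numbers did not pair the libraries (correlations of −0.08 to −0.03), and the block changed no other call in chromatin genes. Over all genes the block moved the calls from 266 to 143 for sites, 19 to 1 for high-level sites and 20 to 76 for listed level. The share of shared WT sites in neither KO list was 87.8% at a level of at least 0.3, against 85.6% over all genes. At an expected coverage of at least 50 it was 75%, against 81.0% over all genes. The KO to WT ratio of high-level sites was 0.707 at a level of at least 0.2, 0.301 at 0.5, 0.722 at a coverage of at least 20 and 0.387 at 100, settings chosen after seeing the data. Kdm5d coverage ranged from −0.47 to 1.33 when a library was left out, and was reversed only without KO replicate 2. Calls over all genes ranged from 18 to 791 for gene coverage, 0 to 271 for sites, 0 to 195 for high-level sites and 0 to 559 for listed level, against 473, 266, 19 and 20. The cause was not tested.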

Other observations

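The share of listed sites in chromatin genes that carried a chromosome-wide coverage value in place of a gene value was 21.6% and 23.7% in the WT and 15.1% and 16.0% in the KO (two-sided exact permutation p = 0.33, the smallest possible). Over all sites it was 21.7% and 24.3% in the WT and 18.4% and 18.6% in the KO. The median conversion rate of chromatin genes was 96.0% and 96.1% in the WT and 96.9% and 96.6% in the KO. Over all genes it was 96.1% and 96.2% in the WT and 97.2% and 96.6% in the KO.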
